A study of Rattus norvegicus and Bos taurus with 6 samples.

Results

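The 465 nuclei described here were chosen from the 5407 nuclei of 2 rat brown fat libraries, taPVAT (thoracic aorta perivascular adipose tissue) and subscapular BAT (brown adipose tissue), by the transcripts they held. A transcript was counted as a unique molecular identifier (UMI), which marks 1 captured RNA molecule. A nucleus was taken when it held at least 3 UMIs summed over the 8 genes Notch3, Pdgfrb, Rgs5, Myh11, Acta2, Carmn, Gucy1b1 and Cspg4, and when this sum was more than 2 times the sum over the 9 genes Ptprb, Pecam1, Flt1, Pdgfra, Dcn, Fbn1, Ptprc, Mrc1 and Dock2, which mark endothelial, stromal and immune cells. Members with at least 2 UMIs of Myh11 plus Acta2 were called smooth muscle nuclei and the others pericyte nuclei. This gave 205 of 2708 nuclei in taPVAT (124 smooth muscle, 81 pericyte) and 260 of 2699 nuclei in BAT (145 smooth muscle, 115 pericyte), of 19424 nuclei in the whole series. Both tissues came from male Dahl SS rats (strain SS/HsdMcwiCrl) fed a normal diet and housed at 22 °C, and were snap frozen before nuclei were isolated and barcoded with the Parse Evercode WT v3 kit in the same batch. The ages and the number of animals behind a library are not given in the sources used here. Each tissue had 1 library, so tissue and library cannot be told apart, no test of a difference was made, and the 95% confidence intervals (CI) cover counting error only. taPVAT was dissected from the aorta, and nuclei of vessels inside the fat and nuclei left from the aortic wall cannot be told apart.

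Pericytes and vascular smooth muscle cells are mural cells, which wrap the endothelium of blood vessels. Smooth muscle surrounds arteries and veins and sets their diameter, whereas pericytes lie on capillaries inside the basement membrane they share with endothelial cells. Endothelial PDGF-B recruits mural cells through the receptor Pdgfrb, and Notch3 maintains them. Smooth muscle contracts when calcium enters through voltage-gated channels and myosin light chain is phosphorylated, and relaxes when nitric oxide raises cGMP, which activates the kinase Prkg1. Brown fat is densely supplied with capillaries that feed its heat-producing adipocytes.

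The libraries held 5100216 UMIs in taPVAT and 6317970 UMIs in BAT, of which the members held 456482 and 858795 UMIs. Members had a median of 1338 UMIs (95% CI 1190 to 1589) in taPVAT and 2191 UMIs (1687 to 2517) in BAT, beside 1235 and 1687 UMIs in the nuclei outside the members. In BAT, smooth muscle nuclei had a median of 2818 UMIs and pericyte nuclei 1486 UMIs, and in taPVAT 1455 and 1282 UMIs. The rules count UMIs, so deeper nuclei met them more easily. No barcode was shared between the Parse libraries.

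Many members also held adipocyte RNA. At least 3 UMIs of the adipocyte genes Plin1, Adipoq, Lipe and Cidea together were found in 83 of 205 members in taPVAT, 40.5% (95% CI 33.7 to 47.6), and in 127 of 260 in BAT, 48.9% (95% CI 42.6 to 55.1). The share was larger in the nuclei outside the members, 54.4% in taPVAT and 68.0% in BAT. These adipocyte-rich members had medians of 3377 UMIs in taPVAT and 3571 UMIs in BAT, whereas the other, adipocyte-poor members had 866 and 1148 UMIs. The level of Plin1, which coats the lipid droplet, was 2686 and 2324 CPM (counts per 1000000 UMIs) in the adipocyte-rich members of taPVAT and BAT, 3222 and 3304 CPM in adipocyte reference nuclei and 172 and 73.3 CPM in the adipocyte-poor members. Here a level is the UMIs of a gene summed over a group of nuclei and divided by all UMIs of that group. Where a pair of values is given without names, the first is that of taPVAT and the second that of BAT. Whether a barcode held more than 1 nucleus was not tested. Values are given for all members and for the 122 and 133 adipocyte-poor members, a division chosen after seeing the data, and values for adipocyte-poor members rest on 127743 UMIs in taPVAT and 245592 UMIs in BAT. The endothelial, stromal and immune reference nuclei used below were not divided by adipocyte RNA.

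Members made up 7.57% (95% CI 6.6 to 8.63) of nuclei in taPVAT and 9.63% (95% CI 8.55 to 10.8) in BAT. Smooth muscle nuclei were 4.58% (95% CI 3.82 to 5.44) and 5.37% (95% CI 4.55 to 6.29) of all nuclei, and pericyte nuclei 2.99% (95% CI 2.38 to 3.7) and 4.26% (95% CI 3.53 to 5.09). To equalize depth, 500 UMIs were drawn from each of the 2322 nuclei of taPVAT and 2584 of BAT that held as many, and the member shares were then 5.04% (95% CI 4.19 to 6.01) in taPVAT and 5.57% (95% CI 4.72 to 6.53) in BAT. At this equal depth the intervals of the libraries overlapped over most of their width. Endothelial reference nuclei, defined by the same kind of rule, were 10.4% (95% CI 9.25 to 11.6) in taPVAT and 17.4% (95% CI 16 to 18.9) in BAT. Member shares were close between the sublibraries of a library, which are parts of 1 pool of nuclei, with 7.62% and 7.51% in taPVAT and 9.38% and 9.9% in BAT. In the shallower white fat libraries, the rule found 104 of 3028 nuclei in the library labelled mesPVAT (median 346 UMIs per nucleus) and 41 of 2805 in that labelled RP fat (median 213 UMIs).

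**Figure D1:**
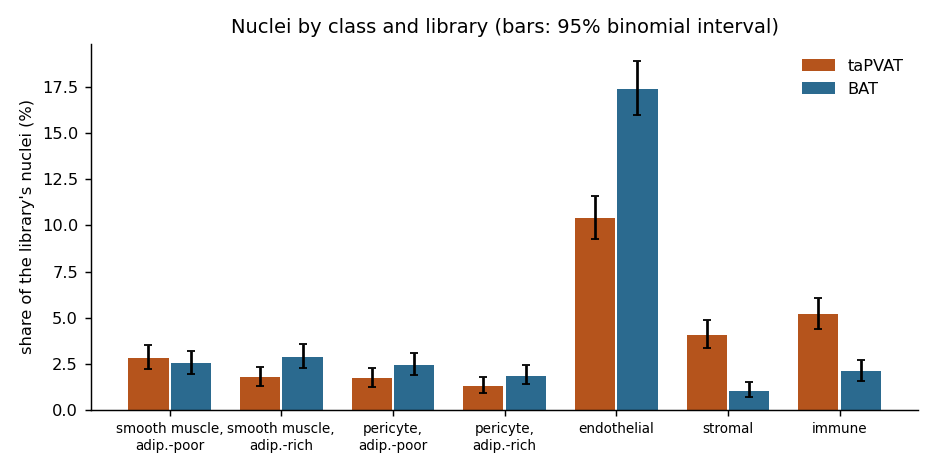
Share of each library's nuclei (%) in the smooth muscle and pericyte groups, divided by adipocyte RNA, and in 3 reference classes, with exact binomial intervals. Smooth muscle and pericyte nuclei with and without adipocyte RNA each made up between 1.29% and 2.85% of a library, fewer than the endothelial reference nuclei.

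Many nuclei lay close to the thresholds. The summed UMIs of the 8 genes had a median of 7 per member in taPVAT and 11 in BAT, and 31 and 41 members had exactly 3. Just outside, 60 and 61 nuclei had exactly 2 and met the ratio. Abcc9, which the rule did not use, had a level of 163 CPM in taPVAT and 208 CPM in BAT just inside and 232 and 33.0 CPM just outside, so in taPVAT it was not lower just outside. A further 125 nuclei in taPVAT and 95 in BAT had 3 or more UMIs of the 8 genes but failed the ratio. The division between smooth muscle and pericyte nuclei had 32 members of taPVAT and 46 of BAT at 1 UMI of Myh11 plus Acta2, and 27 and 28 at 2 UMIs.

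The genes that chose the members are given as a description. Notch3 had a level of 1315 and 1254 CPM in adipocyte-poor members of taPVAT and BAT and 20.3 and 8.46 CPM in endothelial reference nuclei. Pdgfrb had 1433 and 1401 CPM, against 15.2 and 9.31 CPM in the endothelial nuclei. Carmn, a long noncoding RNA next to microRNAs of smooth muscle, had 2090.1 and 2586 CPM, against 16.9 and 16.1 CPM in the endothelial nuclei. Rgs5, a regulator of G protein signalling known from pericytes, had 689 and 916 CPM, against 88.0 and 77.9 CPM in the endothelial nuclei, a smaller ratio than for the other 3. Gucy1b1, a subunit of the nitric oxide receptor, had 243 and 175 CPM, against 0 and 5.93 CPM in the endothelial nuclei. Cspg4, a proteoglycan of pericytes, had 329 and 329.8 CPM, against 20.3 and 15.2 CPM in the endothelial nuclei. Myh11, the smooth muscle myosin, had 5956 and 7899 CPM in adipocyte-poor smooth muscle and 458.5 and 287 CPM in adipocyte-poor pericyte nuclei, as the division required.

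Contractile and pericyte genes outside the rule were higher in the members than in the remaining nuclei of their library. Of 13919 genes with at least 20 UMIs over both groups in each library, 610 (4.38%) were at least 2-fold higher in members in both libraries after adding 1 UMI to each sum. From the fixed lists, this held for 19 of 29 contractile genes and 14 of 19 pericyte genes, with median ratios of 3.05 in taPVAT and 5.03 in BAT for the first list and 5.5 and 7.14 for the second, beside 1.06 and 1.03 over all genes compared. The following counts lie near that background, and the rule itself kept endothelial, stromal and immune genes low. None of 15 endothelial, 20 adipocyte and 16 immune markers and 1 of 16 stromal markers (Gpc6) was 2-fold higher in both libraries. Between adipocyte-poor members and adipocyte-poor remaining nuclei, 394 of 7580 genes (5.20%) were 2-fold higher in both, with 18 of 25 contractile and 15 of 18 pericyte genes.

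The potassium channel subunits Abcc9 and Kcnj8, which together form a channel opened when ATP falls, marked the members. Abcc9 had a level of 3077 and 2879 CPM in adipocyte-poor members of taPVAT and BAT, 27.1 and 31.3 CPM in endothelial and 81.6 and 37.9 CPM in adipocyte reference nuclei. Its level in pericyte nuclei, 4952 and 5563 CPM in adipocyte-poor ones, was more than 2 times that in adipocyte-poor smooth muscle nuclei, 2104 and 1663 CPM. Over all members the levels were 1687 and 2258 CPM and 973 and 968 CPM, under 2-fold apart in taPVAT. Kcnj8 had 125 and 102 CPM in the same members and 1.69 and 0.846 CPM in endothelial reference nuclei. The matrix protein Postn had 1096 and 1283 CPM in these members, 15.2 and 11.9 CPM in endothelial and 189 and 424 CPM in stromal reference nuclei, where it is also expressed.

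Among the positional factors of the fixed list, Tbx5, a T-box factor known from heart and forelimb, had the largest ratio. It had a level of 208 and 334 CPM in all members and 11.2 and 8.24 CPM in the remaining nuclei. It was 18.6-fold (95% CI 13.1 to 26.6) higher in members than in the remaining nuclei of taPVAT and 40.5-fold (95% CI 29.5 to 56.8) higher in BAT. Its level was 802 CPM (95% CI 559 to 1116) in adipocyte-poor pericyte nuclei of taPVAT and 1267 CPM (95% CI 1027 to 1545) of BAT, and 368.5 and 509 CPM in adipocyte-poor smooth muscle nuclei. Tbx2, Tbx3, Nr2f1 and Foxc2 were the other positional factors at least 2-fold higher in both libraries, 5 of 37 compared, beside 4.38% of all genes. Tbx2 had 43.8 and 48.9 CPM in all members and 3.88 and 2.93 CPM outside. Foxc2 had only 7 and 9 UMIs in all members, too few to compare the groups. Nr2f1 had 11.9 and 35.5 CPM in adipocyte-poor smooth muscle and 68.8 and 91.4 CPM in adipocyte-poor pericyte nuclei. Tbx18, a factor used to mark mural cells, was low, with 10 UMIs in all members of taPVAT and 30 in BAT.

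Outside the lists, the 15 genes with the largest ratio in both libraries were Gipr, Agap2, Plcl1, Ttyh2, Dmp1, Gpr176, Lrrc4c, Sgip1, Speg, Rem1, Dchs2, Ntn4, Mamdc2, Pclo and Il34. Gipr, the receptor of the gut hormone GIP, had a level of 78.9 and 108 CPM in all members and 5.17 and 4.76 CPM outside. It was 15.3-fold (95% CI 8.86 to 26.7) higher in members than in the remaining nuclei in taPVAT and 22.7-fold (95% CI 14.6 to 36.6) higher in BAT. Its UMIs were few, 36 in 25 members of taPVAT and 93 in 62 of BAT, but spread over nuclei, with at most 4 in 1 nucleus of BAT and 5 of taPVAT. Gipr was low in members with 10 or more UMIs of Myh11 plus Acta2, at 10.1 and 17.9 CPM, against 104 and 189 CPM at 0 UMIs. Plcl1, a phospholipase C-like protein without catalytic activity, had the most UMIs of them, with levels of 2748 and 3058 CPM in adipocyte-poor members, 74.4 and 50.8 CPM in endothelial and 65.8 and 55.4 CPM in adipocyte reference nuclei. In adipocyte-poor members, Ntn4, a netrin of basement membranes, had 337 and 354 CPM, against 10.2 and 12.7 CPM in endothelial reference nuclei. Il34, a ligand of the macrophage receptor Csf1r, had 289.6 and 265 CPM, against 11.8 and 5.93 CPM in endothelial reference nuclei. Rem1, a small GTPase that inhibits calcium channels, had 164 and 106 CPM, against 1.69 and 1.69 CPM in endothelial reference nuclei. These genes were chosen for their ratio of members to all remaining nuclei, endothelial ones included, so this order follows from the choice. Speg, a kinase of striated and smooth muscle, had 285 and 414 CPM in adipocyte-poor smooth muscle and 206 and 131 CPM in adipocyte-poor pericyte nuclei.

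**Figure D2:**
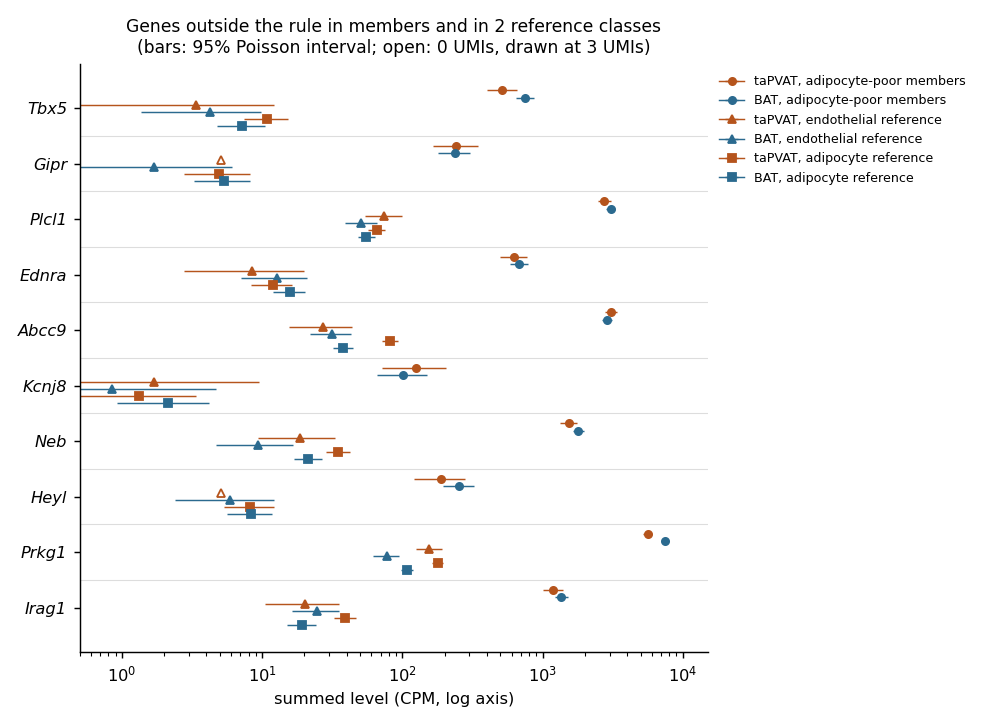
Levels (CPM, log axis) of 10 genes outside the rule in adipocyte-poor members and in endothelial and adipocyte reference nuclei of taPVAT and BAT, with exact Poisson intervals (an interval that reaches 0 is drawn to the left edge). By the choice of the genes, the members lay above both reference classes in both libraries, for Tbx5 at 517 and 745 CPM against at most 10.9 CPM.

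Neb, which encodes nebulin, a ruler protein of skeletal muscle thin filaments, was high in the members and highest in pericyte nuclei. It had a level of 2522 CPM (95% CI 2073 to 3039) in adipocyte-poor pericyte nuclei of taPVAT and 3552 CPM (95% CI 3142 to 3999.8) of BAT. Smooth muscle nuclei of the same kind had 1022 and 1006 CPM, and endothelial reference nuclei 18.6 and 9.31 CPM. Neb also had 588 CPM, from 56 UMIs, in immune reference nuclei of BAT, beside 609 CPM in all smooth muscle nuclei of BAT. In all pericyte nuclei its 122 UMIs in taPVAT came from 38 nuclei and its 369 UMIs in BAT from 71, so it did not rest on a few nuclei. Of 9 striated muscle genes compared, 2 were at least 2-fold higher in members in both libraries, Neb among them, beside 4.38% of all genes. Mybpc2 had 0 and 26.1 CPM in adipocyte-poor pericyte nuclei and 942 and 776 CPM in adipocyte reference nuclei, and Myh4, a myosin of fast skeletal fibres, had 0 and 1 UMIs in all members.

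Smooth muscle nuclei had higher levels of contractile genes than pericyte nuclei in both libraries. The list did not include the dividing genes Myh11 and Acta2, but these were counted in the same nuclei, so its level is a description of the division. The contractile list summed to 9294 CPM (95% CI 8955 to 9643) in smooth muscle nuclei of taPVAT and 5128 CPM in pericyte nuclei. In BAT it summed to 11124 CPM (95% CI 10859 to 11393) and 5172 CPM, beside 4385 CPM in taPVAT and 4621 CPM in BAT for the nuclei outside the members, so pericyte nuclei lay close to nuclei outside the members. Adipocyte-poor smooth muscle nuclei had 15098 and 17845 CPM and adipocyte-poor pericyte nuclei 5456 and 5954 CPM. With the cut at fewer than 3 UMIs of the whole adipocyte list, smooth muscle nuclei had 15199 CPM in taPVAT and 8254 CPM in BAT, so the order of the libraries turned with the cut. The sublibraries of taPVAT differed in this list by more than counting error, with 10833 and 7579 CPM in smooth muscle nuclei, and those of BAT had 10258 and 11674 CPM. The difference between taPVAT and BAT was therefore no larger than that between parts of 1 library.

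Of 4544 genes compared in both libraries, 112 (2.46%) were at least 2-fold higher in smooth muscle than in pericyte nuclei in both, among them 15 of 26 contractile genes. The other direction held for 12 genes (0.264%) and no contractile gene. Of 15 pericyte genes compared, only 1 (Pde8b, a phosphodiesterase) was at least 2-fold higher in pericyte nuclei in both, so most of that list did not set the groups apart by this measure. Among adipocyte-poor nuclei, 71 of 1188 genes (5.98%) were higher in smooth muscle and 53 (4.46%) in pericyte nuclei, with 3 of 13 pericyte genes among the latter (Pde8b, Pdzd2 and Abcc9). Depth moved with the groups, since smooth muscle nuclei had more UMIs in both libraries. The adipocyte list was lower in smooth muscle than in pericyte nuclei, with 15314 against 17247 CPM in taPVAT and 13496 against 16931 CPM in BAT, while endothelial markers were higher. Of 9 compared, 3 (Tek, Egfl7 and Shank3) were at least 2-fold higher in smooth muscle nuclei in both libraries, and the list summed to 1355 and 2593 CPM in smooth muscle against 886 and 963 CPM in pericyte nuclei. Their part in these counts was not tested.

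Myocd, the cofactor of serum response factor that switches on contractile genes, had 24 UMIs in smooth muscle nuclei of taPVAT and 0 in pericyte nuclei, a level of 78.9 CPM and at least 4.01-fold higher against a floor of 3 UMIs. In BAT it had 118 CPM (95% CI 92.1 to 149) in smooth muscle and 11.7 CPM in pericyte nuclei. Tagln, the actin-binding transgelin, had 261.5 and 373 CPM in adipocyte-poor smooth muscle nuclei and no UMI in adipocyte-poor pericyte nuclei of either library. Synpo2, an actin-bundling protein, had 362 and 463 CPM in smooth muscle and 46.0 and 23.4 CPM in pericyte nuclei. It was 7.87-fold (95% CI 3.69 to 20) higher in smooth muscle nuclei in taPVAT and 19.8-fold (95% CI 8.98 to 54.4) higher in BAT. Nexn, Actn1, Flna, Tpm2 and Itga8 were also at least 2-fold higher in both. The myosin light chain kinase Mylk, by contrast, had 799 and 999 CPM in smooth muscle and 552 and 624 CPM in pericyte nuclei, under 2-fold apart in both libraries, and 439 and 502 CPM outside the members.

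Serum response factor and Myocd act through the CArG box, CC followed by 6 A or T bases and GG, which is the reason to show the promoters of contractile genes here. Promoter sequences from RefSeq (build GRCr8) were matched for 25 of 33 contractile genes with Myh11 and Acta2, and the 250 bases before the start were searched. The box lies unchanged on both strands when reversed and complemented. An exact box was found in 2 of them (8%), Ldb3 and Svil, and in 1.5% of all 27457 promoters. With at most 1 C or G allowed among the 6 inner bases, a form added after seeing the sequences, 3 of the 25 (12%) and 7.97% of all promoters had at least 1 box, so the shares were closer, and Acta2 had 2. The stretches are on the minus strand, 5′ to 3′, with the boxes in capitals. That of Acta2 is chr1:241172533-241172682, with boxes that begin 134 and 84 bases before the start, that of Ldb3 is chr16:9924680-9924776 and that of Svil is chr17:57462661-57462715.
Acta2: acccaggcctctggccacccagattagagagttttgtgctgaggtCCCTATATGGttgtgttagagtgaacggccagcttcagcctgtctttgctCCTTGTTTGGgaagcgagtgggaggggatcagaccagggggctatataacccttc
Ldb3: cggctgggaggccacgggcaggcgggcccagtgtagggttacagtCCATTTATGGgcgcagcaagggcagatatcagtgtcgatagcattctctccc
Svil: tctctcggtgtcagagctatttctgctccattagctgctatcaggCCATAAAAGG
A match is a description of the sequence and not a site shown to be used. Acta2 itself had levels of 927 and 1260.3 CPM in adipocyte-poor smooth muscle nuclei, by the choice of these nuclei, Ldb3 had 166 and 231 CPM there and 68.8 and 13.1 CPM in adipocyte-poor pericyte nuclei, and Svil had 214 and 172 CPM and 275 and 104.5 CPM.

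Channels of calcium entry and membrane potential included some with similar levels in both groups, some higher in smooth muscle nuclei and a few higher in pericyte nuclei. Of 25 compared, 11 were at least 2-fold higher in members than in the remaining nuclei in both libraries, beside 4.38% of all genes. Cacna1c, the pore of the L-type calcium channel, had 2675 and 4006 CPM in adipocyte-poor smooth muscle and 2613 and 3343 CPM in adipocyte-poor pericyte nuclei, against 47.4 and 49.9 CPM in endothelial reference nuclei. Its auxiliary subunit Cacnb2 had 535 and 1006 CPM in adipocyte-poor smooth muscle and 45.9 and 52.2 CPM in adipocyte-poor pericyte nuclei, so the pore was present in both groups and this subunit mainly in smooth muscle nuclei. Kcnma1, the calcium-activated BK channel, had 428 and 751 CPM, against 45.9 and 39.2 CPM in the pericyte nuclei. Ryr2, a calcium release channel, had 428 and 314 CPM, against 45.9 and 26.1 CPM in the pericyte nuclei. In all members, 5 of 20 channel genes compared (Atp2b4, Kcnma1, Ryr2, Cacnb2 and Kcnab1) were at least 2-fold higher in smooth muscle nuclei in both libraries, beside 2.46% of all genes. Ano4, of the anoctamin family, was the only one at least 2-fold higher in pericyte nuclei in both, with 550.2 and 718 CPM in adipocyte-poor pericyte and 214 and 189 CPM in adipocyte-poor smooth muscle nuclei. Kcnq5, a voltage-gated potassium channel, had 2613 and 3434 CPM in the pericyte and 1509.7 and 1598 CPM in the smooth muscle nuclei, and at most 47.4 CPM in endothelial reference nuclei.

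The summed level of cGMP and cAMP signalling genes was higher in both groups than in the remaining nuclei. Over all members, the list summed to 10149 CPM in smooth muscle and 10157 CPM in pericyte nuclei of taPVAT, and to 11361 and 12025 CPM in BAT, against 5511 and 5032 CPM outside the members. In adipocyte-poor nuclei of BAT it was higher in pericyte than in smooth muscle nuclei, with 22002 CPM (95% CI 20964 to 23078) against 16686 CPM (95% CI 16075 to 17313). In those of taPVAT it had 17926 CPM (95% CI 16692 to 19228) against 14337 CPM (95% CI 13539 to 15169). The order in taPVAT rested on nuclei with 1 UMI of Myh11 plus Acta2, at 23046 CPM. Those at 0 had 13432 CPM, at 2 to 9 UMIs 13851 CPM and at 10 or more 15443 CPM. In BAT these 4 values were 23528, 20960, 17370 and 16057 CPM. By sublibrary, taPVAT had 18928 against 13095 CPM in the first and 16673 against 16273 CPM in the second. Of 21 genes, 8 were at least 2-fold higher in all members than outside in both libraries, beside 4.38% of all genes. In adipocyte-poor members this held for 12 of 20, beside 5.20%. The natriuretic peptide receptors Npr1 and Npr3 were at least 2-fold lower there, a direction for which the share of all genes was not counted. None of 17 genes compared was 2-fold apart between the groups in both libraries, a count near that from the 2.46% and 0.264% of all genes. Prkg1, the cGMP-dependent kinase, had 6510.3 CPM (95% CI 5775 to 7313) in adipocyte-poor pericyte nuclei of taPVAT and 8292 CPM (95% CI 7659 to 8962) of BAT, and 5159 and 7071 CPM in adipocyte-poor smooth muscle nuclei. Its substrate Irag1 had 1182 and 1360 CPM in adipocyte-poor members and 20.3 and 24.6 CPM in endothelial reference nuclei. The guanylate cyclase subunit Gucy1a1 had 649.7 and 957 CPM, against 16.9 and 14.4 CPM in the endothelial nuclei. Gucy1a2, another such subunit, had 1292 and 1356 CPM, against 23.7 and 47.4 CPM in the endothelial nuclei. Among adipocyte-poor nuclei, Pde3a, a phosphodiesterase inhibited by cGMP, had 1736 and 1361 CPM in smooth muscle and 711 and 274 CPM in pericyte nuclei, higher in the former by 2.44-fold (95% CI 1.65 to 3.73) in taPVAT and 4.96-fold (95% CI 3.17 to 8.17) in BAT, whereas Pde10a and Pde7b were at least 2-fold higher in pericyte nuclei in both.

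Both endothelin receptors were present in both groups, with higher levels in pericyte than in smooth muscle nuclei among adipocyte-poor members. Between the groups, 0 of 8 receptors compared were 2-fold apart in both libraries, near the 2.46% and 0.264% of all genes. In adipocyte-poor nuclei 0 of 4 were, near 5.98% and 4.46%. Ednra had only 37 and 79 UMIs in adipocyte-poor pericyte nuclei and 43 and 88 UMIs in adipocyte-poor smooth muscle nuclei. Ednra had 848 and 1032 CPM in adipocyte-poor pericyte nuclei, 511 and 521 CPM in adipocyte-poor smooth muscle nuclei and 8.46 and 12.7 CPM in endothelial reference nuclei. Ednrb had 481 and 614 CPM in the pericyte nuclei, 297 and 237 CPM in the smooth muscle nuclei and 47.4 and 44.9 CPM in the endothelial nuclei. Agtr1a, the angiotensin II receptor, had 275 and 418 CPM in adipocyte-poor pericyte, 238 and 159.8 CPM in adipocyte-poor smooth muscle and 166 and 102 CPM in stromal reference nuclei. P2rx1, a channel opened by ATP from sympathetic nerves, was found in smooth muscle nuclei, with 12 UMIs in taPVAT and 84 in BAT, against 0 and 1 in pericyte nuclei. Of 26 receptors compared, 6 were at least 2-fold higher in members than outside in both libraries, beside 4.38% of all genes, namely these 4 with S1pr3 and Adra1b. Adra1a, the receptor with the most UMIs in members, had 1540.2 and 1641 CPM in adipocyte reference nuclei and 203.5 and 155 CPM in adipocyte-poor members.

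Of the Notch list, in which Notch3 was not counted, 1 of 15 genes was at least 2-fold higher in members in both libraries, a share near the 4.38% of all genes. This was Heyl, a target of Notch signalling, with 188 and 252.5 CPM in adipocyte-poor members and 0 and 5.93 CPM in endothelial reference nuclei. The ligand Jag1 had 211 and 232 CPM in adipocyte-poor members, against 132 and 118 CPM in endothelial reference nuclei, which were not so divided. The Notch list summed to 1761 and 2106 CPM in all members and 2865 and 3294 CPM in adipocyte-poor members. In endothelial reference nuclei it summed to 2367 and 2172 CPM, so the order turned with the division. Of the PDGF and angiogenic list, 5 of 29 were 2-fold higher, among them Pdgfa, Tgfb2, Tgfb3 and Angpt2. In adipocyte-poor members, the growth factor chain Pdgfa had 117 and 102 CPM, against 20.3 and 6.77 CPM in endothelial reference nuclei. Angpt2, a ligand of the endothelial receptor Tek, had there 54.8 and 77.4 CPM, against 30.5 and 26.2 CPM in endothelial reference nuclei.

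Of the basement membrane list, 8 of 28 genes were at least 2-fold higher in members than outside in both libraries, and of the fibrillar matrix list 10 of 28, beside 4.38% of all genes. A few chains were higher in smooth muscle than in pericyte nuclei. Col4a1, a chain of collagen IV, had 3484 and 3460.3 CPM in adipocyte-poor pericyte, 1748 and 2479 CPM in adipocyte-poor smooth muscle and 1120 and 1191 CPM in endothelial reference nuclei. Lamc3, a laminin chain, had 172 and 191 CPM in adipocyte-poor members and 3.38 and 8.46 CPM in endothelial reference nuclei. Lama5, Col4a5, Col18a1, Bcam and Itga9 were at least 2-fold higher in smooth muscle than in pericyte nuclei in both libraries, 5 of 25 beside 2.46% of all genes, as were the endothelial markers named above, whose part was not tested. In adipocyte-poor nuclei, only Col18a1 of 15 compared was and Lama2 was lower, near the 5.98% and 4.46% of all genes, and the list summed to 10081 and 12141 CPM in smooth muscle against 12746 and 13214 CPM in pericyte nuclei. Lama5 had 1 UMI in pericyte nuclei of taPVAT and 5 of BAT, against 31 and 144 in smooth muscle nuclei. Of the fibrillar matrix, Eln, which encodes elastin of the arterial wall, had 447 CPM (95% CI 375 to 529) in smooth muscle nuclei of taPVAT and 439.9 CPM (95% CI 388.5 to 496) of BAT, and 52.5 and 27.3 CPM in pericyte nuclei. Eln also had 269 and 111 CPM in endothelial reference nuclei, where up to 61 of its UMIs came from 1 nucleus. Fn1 and Thbs1 were the other matrix genes at least 2-fold higher in smooth muscle nuclei in both libraries.

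Over all genes, the 10 with the largest ratio of smooth muscle to pericyte nuclei in both libraries were Cdh6, Thbs1, Actg2, Lama5, Myocd, Eln, Synpo2, Pcdh7, Col4a5 and Sdk2. Cdh6, a cadherin, had 27 UMIs in 15 smooth muscle nuclei of taPVAT and 175 in 41 of BAT, with 0 and 4 in pericyte nuclei. In the other direction these were Kcnt1, Art3, Dcbld1, Bmper, Pappa, Aldh1a2, Ccdc69, Gprin3, Nostrin and Septin4, all with small ratios. The largest was that of Kcnt1, a sodium-activated potassium channel, at 2.66-fold (95% CI 1.18 to 6.17) in taPVAT and 2.91-fold (95% CI 1.86 to 4.58) in BAT. Gprin3 was lower in adipocyte-poor pericyte nuclei (22.9 and 13.1 CPM) than outside the members (48.7 and 61.4 CPM). Septin4, a cytoskeletal GTPase, had 757 and 692 CPM, against 202 and 260.3 CPM in smooth muscle nuclei among adipocyte-poor members. Aldh1a2, an enzyme of retinoic acid synthesis, had 275 and 326 CPM, against 95.1 and 88.8 CPM in smooth muscle nuclei among them, so both kept a ratio above 2 without the adipocyte-rich members.

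**Figure D3:**
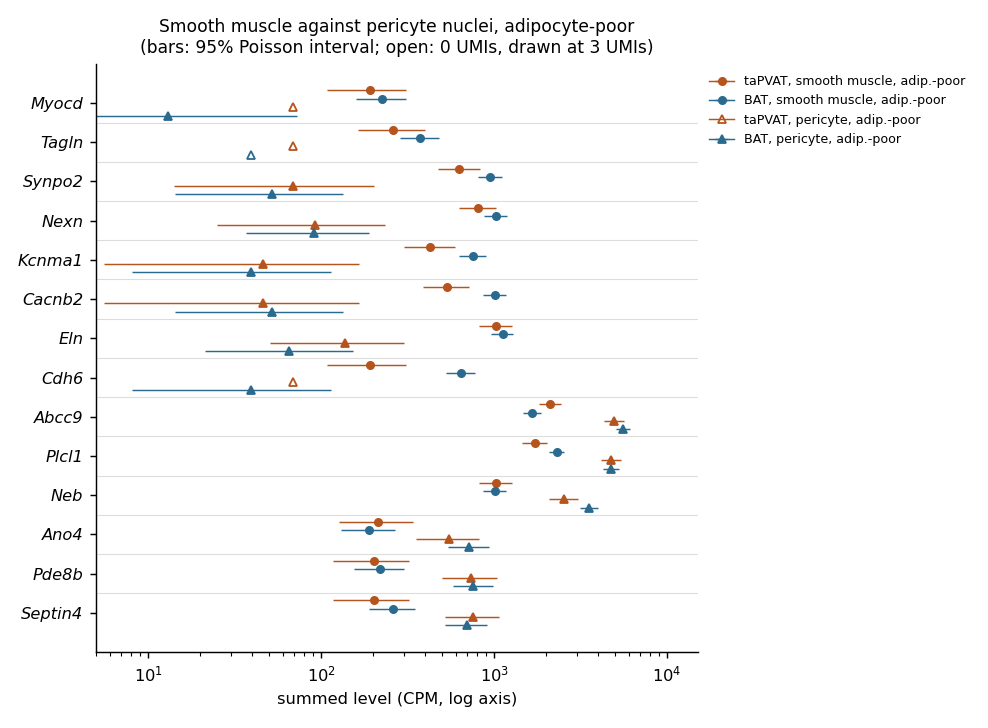
Levels (CPM, log axis) of 14 genes in adipocyte-poor smooth muscle and pericyte nuclei of taPVAT and BAT, with exact Poisson intervals; an open mark is a gene with 0 UMIs, drawn at the level of 3 UMIs. The first 8 genes lay higher in smooth muscle nuclei and the last 6 in pericyte nuclei, for example Synpo2 at 630.1 and 947 against 68.8 and 52.2 CPM and Abcc9 at 2104 and 1663 against 4952 and 5563 CPM.

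Within the members, the contractile list was highest and the pericyte list lowest in nuclei with 10 or more UMIs of Myh11 plus Acta2, in both libraries. In adipocyte-poor members of BAT, the contractile list summed to 5493 CPM at 0, 6630.4 CPM at 1, 6548 CPM at 2 to 9 and 28229.5 CPM at 10 or more UMIs. In taPVAT it summed to 5079.9, 5884, 11013 and 24413 CPM. The pericyte list summed to 24717 CPM at 0 and 19446 CPM at 2 to 9 UMIs in BAT and to 8062 CPM at 10 or more. In taPVAT it summed to 17349 CPM at 0, 24321 CPM at 1, 13492 CPM at 2 to 9 and 10529.6 CPM at 10 or more, so there its largest fall came before the last step. The smooth muscle group of BAT thus held 41 adipocyte-poor nuclei whose summed contractile level lay within 1.5 times that of pericyte nuclei, and 27 nuclei with a level several times as high.

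Single genes differed along the same count, not always step by step. In adipocyte-poor members of BAT, Abcc9 had 5405 CPM at 0, 5794 CPM at 1, 3348 CPM at 2 to 9 and 114 CPM at 10 or more UMIs, and Neb had 3252, 3991, 2014 and 79.5 CPM. Synpo2 had 22.0, 96.6, 111 and 1715 CPM. In taPVAT the last step was smaller for Abcc9 and absent for Neb, with Abcc9 at 3875, 6178, 2599 and 975 CPM and Neb at 2411, 2648, 941 and 1209 CPM. Abcc9 and Neb had larger values at 1 than at 0 UMIs in both libraries, but the intervals overlapped except for Abcc9 in taPVAT. Prkg1 was highest at 1 UMI, with 7944 CPM in taPVAT and 8819 CPM in BAT, and lowest at 2 to 9 UMIs, with 4942 and 6609.5 CPM. At 10 or more it had 5655 and 7494.5 CPM, beside 5252 and 7931.5 CPM at 0. Only 15 adipocyte-poor nuclei of taPVAT were at 10 or more. Deeper nuclei reach 10 UMIs more easily, and the median was 2545 UMIs in the BAT nuclei at 10 or more and 952 UMIs in those at 0.

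**Figure D4:**
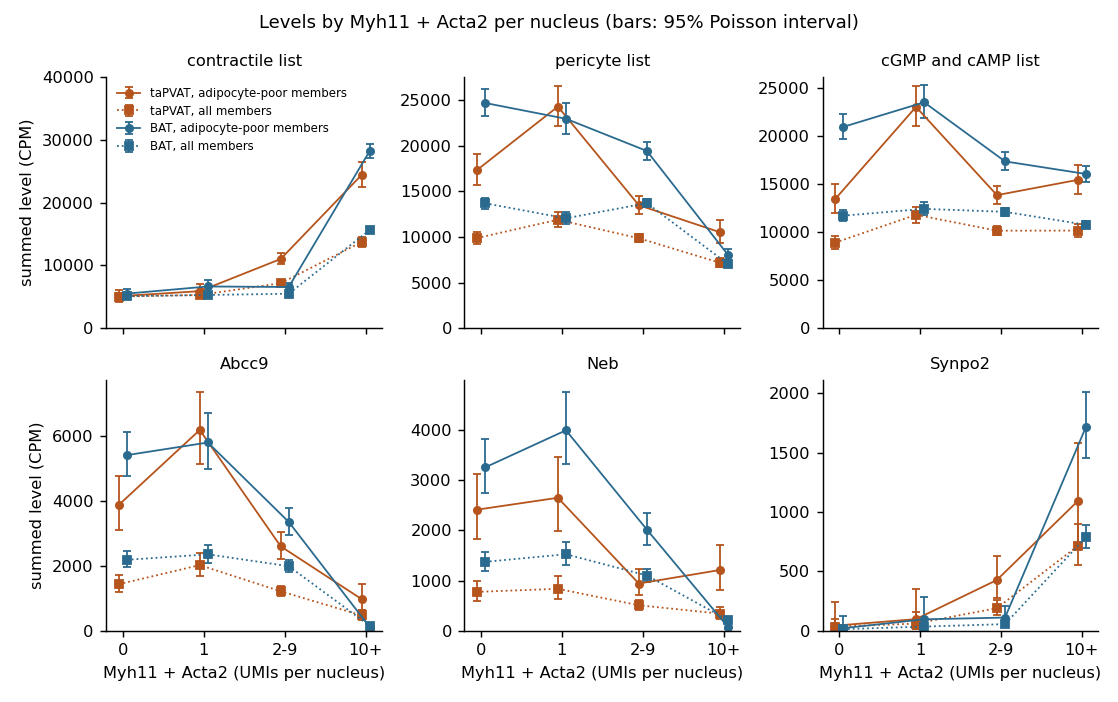
Summed levels (CPM) of 3 lists and 3 genes in members grouped by UMIs of Myh11 plus Acta2 per nucleus, for adipocyte-poor members (solid) and all members (dotted) of taPVAT and BAT, with exact Poisson intervals. The contractile list and Synpo2 were highest at 10 or more UMIs and the pericyte list and Abcc9 lowest there, in both libraries.

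Markers of other cell types were present in the members at measured levels. The adipocyte list summed to 15959 CPM in taPVAT and 14522 CPM in BAT for all members, 3397 and 3152 CPM for adipocyte-poor members and 13089 and 13077 CPM for endothelial reference nuclei, with all 20 genes detected in all members and Acsl1 the most abundant by UMIs. Ucp1, the uncoupling protein of brown adipocytes, had 1485 and 1396 CPM in all members and 172 and 77.4 CPM in adipocyte-poor members. The endothelial list, given above for both groups, summed to 7640.1 and 8099 CPM in endothelial reference nuclei, and its most abundant gene in members by UMIs was Mecom. In BAT it was highest at 2 to 9 UMIs of Myh11 plus Acta2, 4435 CPM in adipocyte-poor members. The defining gene Cdh5 had 39.5 and 86.3 CPM in smooth muscle and 0 and 31.2 CPM in pericyte nuclei. Stromal, immune and Schwann lists summed to 2079, 567 and 1139 CPM in members of taPVAT and to 1641, 374 and 1511 CPM in BAT. The mesothelial list summed to 241 and 93.2 CPM, the striated muscle list to 1816 and 1801 CPM and the immediate early list, a sign of handling, to 719 and 715 CPM, beside 776 and 832 CPM outside the members for the last.

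The libraries were then set side by side within each group of nuclei. In smooth muscle nuclei, 277 of 7080 genes (3.91%) were at least 2-fold higher in taPVAT and 302 (4.27%) in BAT, and in pericyte nuclei 163 of 4035 (4.04%) and 131 (3.25%). In adipocyte-poor nuclei the counts were 183 and 200 of 2738 genes (6.68% and 7.30%) for smooth muscle and 49 and 50 of 1064 (4.61% and 4.70%) for pericyte nuclei. Most of these genes had few UMIs, and only 19 and 64 of those in smooth muscle nuclei had 100 or more over both libraries. Of the genes higher in taPVAT, 44 of 277 in smooth muscle and 17 of 163 in pericyte nuclei were also at least 2-fold higher in taPVAT in the nuclei outside the members. Of those higher in BAT, 8 of 302 and 3 of 131 were also at least 2-fold higher in BAT there. Of all genes compared in smooth muscle and in pericyte nuclei, 2.37% and 1.88% were at least 2-fold higher in taPVAT outside the members, and 0.141% and 0.149% in BAT.

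Of the 10 genes furthest apart in smooth muscle nuclei, 7 of those higher in taPVAT and 1 of those higher in BAT were also at least 2-fold apart in the nuclei outside the members. In pericyte nuclei these were 6 and 1 of 10, beside the shares of all genes just given. Kif15, a mitotic kinesin, had 16.4 CPM in smooth muscle nuclei of taPVAT and 320.4 CPM in BAT, 0 and 207 CPM in pericyte nuclei and 16.2 and 191 CPM outside the members. Foxp2, a forkhead factor, had 230.1 and 48.1 CPM in smooth muscle, 256 and 27.3 CPM in pericyte and 294 and 37.9 CPM in other nuclei of taPVAT and BAT. Aspg, an asparaginase, had 230.1 and 14.9 CPM in smooth muscle nuclei, but only 11.9 and 5.92 CPM in adipocyte-poor ones and 246 and 49.6 CPM in adipocyte reference nuclei. Myh6, a cardiac myosin, led the genes higher in pericyte nuclei of taPVAT, but 1 nucleus held all 32 of its UMIs, and 20 of 24 UMIs of titin (Ttn) came from 1 nucleus.

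**Figure D5:**
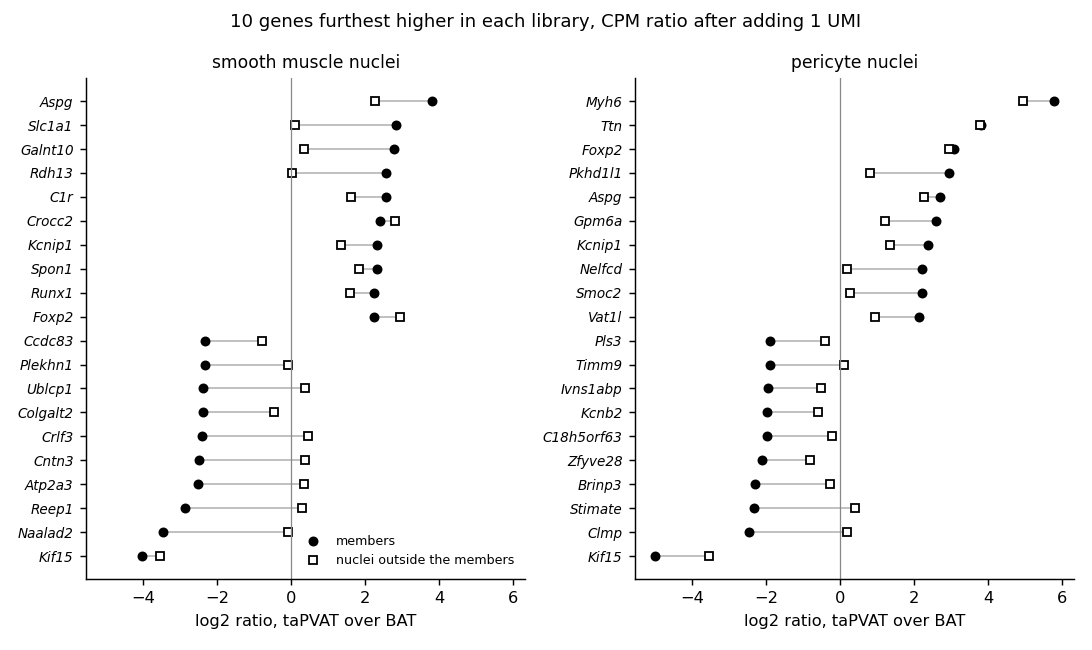
Log2 ratio of taPVAT over BAT, after adding 1 UMI, for the 10 genes furthest apart in each direction in smooth muscle nuclei and in pericyte nuclei (filled) and in the nuclei outside the members (open). Kif15, Foxp2 and Aspg lay apart in the same direction in both kinds of nuclei, whereas Slc1a1 and Rdh13 lay near 0 outside the members, and so did most of the genes higher in BAT.

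Some genes of muscle, channel and factor lists were also 2-fold apart between the libraries, part of them in nuclei outside the members too. Tbx15, a T-box factor, had 26.3 and 101 CPM in smooth muscle and 26.3 and 105 CPM in pericyte nuclei of taPVAT and BAT, 3.85-fold (95% CI 1.84 to 9.32) and 4.01-fold (95% CI 1.4 to 15.8) higher in BAT, and was 2.82-fold (95% CI 2.21 to 3.64) higher in BAT outside the members, where it had 18.3 and 51.7 CPM. Cacna1h, a T-type calcium channel, had 52.6 and 146 CPM in smooth muscle and 26.3 and 101 CPM in pericyte nuclei against 6.68 and 4.21 CPM outside. Atp2a3, a calcium pump, had 2 UMIs in smooth muscle nuclei of taPVAT and 33 in BAT. P2rx1 had 39.5 and 139 CPM in smooth muscle nuclei, 3.53-fold (95% CI 1.92 to 7.11) higher in BAT. Csrp1, a LIM protein of smooth muscle, had 224 and 521 CPM in smooth muscle nuclei, 2.33-fold (95% CI 1.79 to 3.08) higher in BAT, and was also 2.06-fold (95% CI 1.84 to 2.31) higher outside the members. In taPVAT, Fn1, which encodes fibronectin, had 368 CPM in smooth muscle nuclei against 149 CPM in BAT, and 164 and 35.7 CPM outside the members. Of the fixed lists, contractile genes were at least 2-fold lower in taPVAT for 5 of 30 genes in smooth muscle nuclei, beside 4.27% of all genes, and higher for 0, with a median ratio of 0.789 beside 1.02 over all genes compared. In adipocyte-poor smooth muscle nuclei 3 of 30 were lower, near the 7.30% of all genes, and in pericyte nuclei 2 were higher and 3 lower of 17, beside 4.04% and 3.25%. The summed level of the list turned with the setting, with 12366 CPM in taPVAT and 11462 CPM in BAT as means per nucleus. Endothelial markers moved in the same direction as the counts, with 6 of 15 at least 2-fold lower in taPVAT smooth muscle nuclei and a median ratio of 0.584, and their part was not tested. The smooth muscle group of BAT held 58 nuclei with 10 or more UMIs of Myh11 plus Acta2 and that of taPVAT 26, so the groups differed in makeup as well as in tissue. In pericyte nuclei, 0 of 15 pericyte genes compared were 2-fold apart in either direction, near the background of 4.04% higher and 3.25% lower over all genes, with a median ratio of 0.824 beside 0.998 over all genes compared.

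Among adipocyte-poor smooth muscle nuclei, genes higher in taPVAT included C7, Spon1, Sned1 and C4b, which were also high in stromal reference nuclei. C7, a complement component, had 321 and 59.2 CPM in adipocyte-poor smooth muscle nuclei and 909 and 1443 CPM in stromal reference nuclei of taPVAT and BAT. Sned1, a matrix protein, had 368.5 and 65.1 CPM, against 1940.2 and 1001 CPM in the stromal nuclei. The stromal list summed to 4006 CPM in taPVAT and 2438 CPM in BAT in these nuclei, and 3 of 9 of its genes compared (Col1a1, Col1a2 and Gsn) were at least 2-fold higher in taPVAT, beside 6.68% of all genes, with a median ratio of 1.81. Of 13 adipocyte markers compared in the same nuclei, 3 (Ucp1, Plin1 and Fasn) were also higher in taPVAT, with a median ratio of 1.286. In all smooth muscle nuclei 0 of 9 stromal genes were 2-fold apart, with a median ratio of 1.225. Stromal reference nuclei numbered 110 in taPVAT and 28 in BAT, and their part in these values was not tested. Genes higher in BAT in adipocyte-poor smooth muscle nuclei included Tbx15, Hecw1, Cntn3, Pdgfd and the endothelial marker Adgrl4. Of 12 endothelial markers compared there, 4 were at least 2-fold lower in taPVAT, beside 7.30% of all genes, with a median ratio of 0.634. The part of the endothelial and adipocyte markers was not tested. Hecw1, a ubiquitin ligase, had 11.9 and 177.5 CPM in adipocyte-poor smooth muscle, 45.9 and 222 CPM in adipocyte-poor pericyte nuclei and 20.7 and 15.6 CPM outside the members.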

How the data were processed

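Nuclei of both tissues were measured by single-nucleus RNA-seq on the Parse platform. Reads had been assigned to rat and aligned to GRCr8 with split-pipe, and the authors deposited raw UMI counts per gene and called barcode. A later filter or doublet step is not stated for the deposited counts. Groups came from the labels, and all called barcodes were used. No doublet caller was run. Members, gene lists and comparisons were chosen with earlier results of these data known.

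UMIs were summed per library and group and scaled to CPM. Intervals at 95% were exact Poisson for sums, exact binomial (Clopper-Pearson) for shares, order-statistic for medians and exact conditional for ratios. No test was run, as there were no replicates. For a group with no UMI of a gene, 3 UMIs served as the floor of a ratio. Counts of genes used ratios with 1 UMI added to each sum and at least 20 UMIs over both groups, without the 17 genes of the rule. Reference nuclei were endothelial, stromal or immune when the matching genes summed to at least 3 UMIs and more than 2 times the other genes of the rule, and adipocyte when Plin1, Adipoq, Lipe and Cidea summed to at least 3 UMIs in none of these classes. Named genes were those of the rule, from each of 18 lists (442 genes) up to 8 with the most UMIs in members and those 2-fold apart in both libraries, and the 15 (members, at least 30 UMIs in each library) or 10 (other comparisons) with the largest ratio. The same for adipocyte-poor nuclei, and Cdh5, Myh4 and Svil, were added after seeing the data. CPM is not scaled to gene length, so levels are compared between groups and not between genes. Some genes that meet this rule are not reported here. The ratios and their intervals were tried on simulated Poisson sums, with changes larger than 2-fold in genes with many UMIs. That simulation had no spread between nuclei, so it cannot speak for 2-fold calls at low counts or for genes carried by few nuclei. Alternatives covered the thresholds, thinning, other scalings, minimum counts and part of the study's filters. That part was its limits of 100 and 15000 UMIs, 4500 genes and 3% mitochondrial UMIs. The study's doublet and outlier steps were not repeated. Python 3.11.15, numpy 2.4.6, scipy 1.17.1 and pandas 2.3.3 were used.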

Additional observations from a re-analysis of the deposited data

Results flagged for a closer look

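Among the genes picked out by name, 6 had groups of nuclei at least 2-fold apart in opposite directions in the 2 libraries. All 6 had been picked for lying furthest apart between taPVAT and BAT within a group of nuclei, a choice that favours such pairs. The share over all genes compared was not counted. These differences were not tested, since each library is 1 sample. The ratio of smooth muscle to pericyte nuclei was 0.313 in taPVAT and 2.09 in BAT for Tesc, a calcium-binding protein, which had 52.6 and 73.4 CPM in all members and 6.89 and 4.21 CPM outside them. For Pkhd1l1 it was 0.261 and 4.68, with up to 19 of 54 UMIs of BAT smooth muscle nuclei in 1 nucleus. For Stimate it was 3.38 and 0.275, for Sned1 2.72 and 0.327, and for Spon1 2.5 and 0.426. The ratio of members to the remaining nuclei was 0.484 in taPVAT and 4.06 in BAT for Atp2a3. Many genes were compared and some counts were low, and whether chance gave such pairs was not tested.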

How the results depend on the processing

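Of 122 values under other settings, 89 lay outside the interval of the reported value or, for counts of genes, beyond 1.5 times. No paired analysis was possible because each group has 1 library. The member shares in taPVAT and BAT were 9.79% and 11.9% with at least 2 UMIs of the 8 genes, 5.8% and 7.37% with at least 5, 3.4% and 4.48% with no UMI of the 9 genes, 9.27% and 10.7% with the first sum above the second, 5.04% and 5.57% at 500 UMIs and 9.65% and 14.6% of adipocyte-poor nuclei, an added setting. BAT had the higher share in each, and the gap was smallest at 500 UMIs. Smooth muscle made up 60.5% and 55.8% of members, 76.1% and 73.5% with the division at 1 UMI, 47.3% and 45% at 3, 68.2% and 62.3% with at least 5 UMIs of the 8 genes and 49.6% and 41.7% at 500 UMIs. Its share of adipocyte-poor members, an added setting, was 62.3% and 51.1%. In sublibrary 1 the share was 63.7% and 53.1% and in sublibrary 2 it was 56.5% and 58.3%, so the order of the libraries turned. The filters of the study stand here for its limits on UMIs, genes and mitochondrial share, without its doublet and outlier steps. List levels are given for smooth muscle and pericyte nuclei of taPVAT, then of BAT, and for members of taPVAT and BAT. They were 9294, 5128, 11124 and 5172 CPM for contractile genes, 8985, 10754, 10005 and 12972 CPM for pericyte genes and 15959 and 14522 CPM for adipocyte genes as reported, 12366, 5435, 11462 and 5581 CPM for contractile genes, 10010.3, 15436, 11307 and 17243 CPM for pericyte genes and 10242 and 10921 CPM for adipocyte genes as means per nucleus, 10454, 5840, 12352 and 5909.8 CPM for contractile genes, 10107, 12248, 11109.9 and 14824 CPM for pericyte genes and 18026 and 16262 CPM for adipocyte genes without mitochondrial genes and the most abundant gene, 15199, 5694, 8254 and 5902 CPM for contractile genes, 12181, 22722, 19848 and 27057 CPM for pericyte genes and 1689 and 1260.3 CPM for adipocyte genes in the members with fewer than 3 UMIs of the adipocyte list, 9347, 5128, 11698 and 5172 CPM for contractile genes, 9165, 10754, 10490 and 12972 CPM for pericyte genes and 15943 and 14103 CPM for adipocyte genes with the filters of the study, 10426, 5017, 12077 and 5088 CPM for contractile genes, 9336, 9884, 9548 and 13704 CPM for pericyte genes and 14869.6 and 13649 CPM for adipocyte genes with the division at 3 and 0 UMIs, and 15098, 5456, 17845 and 5954 CPM for contractile genes, 12589, 20608, 13514 and 24013 CPM for pericyte genes and 3397 and 3152 CPM for adipocyte genes in adipocyte-poor members. Contractile genes were higher in smooth muscle than in pericyte nuclei and pericyte genes lower under each of these settings, in both libraries. Contractile genes in smooth muscle nuclei were lower in taPVAT than in BAT as reported, but higher as means per nucleus and with fewer than 3 UMIs of the adipocyte list; the cause of the shifts in size was not tested. The numbers of genes higher in members, in smooth muscle, in pericyte nuclei, in smooth muscle nuclei of taPVAT and of BAT and in pericyte nuclei of taPVAT and of BAT were 610, 112, 12, 277, 302, 163 and 131. They were 7103, 333, 752, 4748, 1580, 4772 and 1131 with no minimum, 339, 43, 4, 65, 124, 17 and 23 with at least 50 UMIs, 550, 117, 12, 277, 336, 171 and 149 with 0.5 UMI added and 394, 71, 53, 183, 200, 49 and 50 in adipocyte-poor nuclei, where fewer genes were compared but the number higher in pericyte nuclei was larger; the cause was not tested. Depth limits single genes, since pericyte nuclei of taPVAT held 152317 UMIs and 3 UMIs there equal 19.7 CPM.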

Other observations

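Between the libraries, other lists held a few genes at least 2-fold apart in smooth muscle nuclei. Of 24 fibrillar matrix genes compared, 3 were higher in taPVAT, Ltbp2, Fn1 and Tnc, beside 3.91% of all genes. Ltbp2, which binds elastic microfibrils, had 98.6 and 29.9 CPM in smooth muscle nuclei of taPVAT and BAT and 71.3 and 49.3 CPM outside the members. Of 22 channel genes, 4 were lower in taPVAT, Slc8a1, Cacnb2, Cacna1h and Kcnab1, beside 4.27% of all genes. Slc8a1, the sodium-calcium exchanger, had 329 and 757 CPM in smooth muscle nuclei and 141 and 103 CPM outside. Of 13 receptors, 2 were higher in taPVAT (Adrb1 and Pth1r), beside 3.91%, and 3 lower (Htr2a, Ptger3 and P2rx1), beside 4.27% of all genes. Htr2a for serotonin had 3 and 18 UMIs in smooth muscle nuclei of taPVAT and BAT, and Adrb1 for noradrenaline 32 and 27 UMIs.

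By loading well, smooth muscle made up between 56.1% and 62.9% of members in taPVAT and between 44% and 62.1% in BAT. In the libraries labelled mesPVAT and RP fat, 78.9% and 78.1% of the nuclei meeting the rule were in the smooth muscle group.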
